A study of Mus musculus with 24 samples.

Results

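Wild-type mouse eosinophils stimulated overnight by GM-CSF (granulocyte-macrophage colony-stimulating factor) were compared with untreated eosinophils across all genes. The comparison took the 3 libraries titled as wild type with GM-CSF alone and the 3 titled as wild-type controls, 6 of the 24 libraries of the series, and it left out the wild-type libraries that also received interleukin-10 (IL-10). The series grew eosinophils from bone marrow of C57BL/6 mice of 3 genotypes and measured messenger RNA under up to 4 treatments. Until day 4 the cultures held FLT3 ligand and stem cell factor, each at 100 ng/ml, and after that IL-5 (interleukin-5) at 10 ng/ml. Both wild-type groups, the controls included, were freed of dead cells on day 13 and stayed in IL-5 at 10 ng/ml through the stimulation. The treated group then had recombinant GM-CSF at 20 ng/ml, and the untreated group had none. All values therefore describe GM-CSF added to cells that were already under IL-5, in a culture and not in a tissue. For 2 side comparisons the same treatment was read in wild-type cells with IL-10 present and in cells labelled Csf2ra-/-, after the gene of the GM-CSF receptor alpha chain. The labels give neither the animals' age nor the IL-10 dose. They speak of triplicates without saying whether these were separate animals or cultures, so p-values measure the spread between these libraries, which may be technical.

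GM-CSF binds an alpha chain that is its own and signals through a beta chain that it shares with IL-3 and IL-5. The beta chain carries the kinase JAK2, which activates the transcription factor STAT5, and also feeds the MAP kinase and PI3 kinase pathways. Eosinophils are granulocytes of allergic and antiparasitic responses, and IL-5, IL-3 and GM-CSF are known to prolong their survival and to prime them.

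Total counts ran from 11881294 to 18295944 over the 6 libraries, 13833 to 14189 genes had at least 1 count, and mitochondrial transcripts made up 0.72% to 0.81% of the counts. The summed level of 10 eosinophil marker genes, among them Prg2, Epx, Siglecf and Ccr3, was 76573 to 81597 CPM (counts relative to library size, scaled between libraries by edgeR's TMM method) in untreated and 74205 to 78119.7 CPM in GM-CSF libraries, so the label holds in both groups. Summed over 4 Y-linked genes, untreated replicates 1 to 3 had 173, 58.2 and 52.7 CPM, and GM-CSF replicates 1 to 3 had 178, 176 and 52.5 CPM. With this level as a covariate 63 genes were called with GM-CSF in wild type, 60 of them among the 66 of the main comparison. In the libraries labelled Csf2ra-/- the targeted gene Csf2ra was lower but not absent, at 28.5 to 39.8 CPM against 41.8 to 83.8 CPM in the other 18 libraries. Irf5 was high in the 6 libraries labelled Irf5-/-, at 1394 to 1999 CPM against 28.3 to 94.3 CPM elsewhere, and those libraries entered only the shared estimate of the spread.

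GM-CSF changed few genes. A gene was called when edgeR's quasi-likelihood test gave an adjusted p under 0.05 over the 11885 genes tested. By this rule 49 genes rose (0.412%) and 17 fell (0.143%), 66 in all (0.555%). Of these, 38 rises and 15 falls were at least 2-fold. The shares in percent are the background for the called members of every gene list below. The median log2 fold change of all tested genes was -0.01, and 745 genes had an unadjusted p under 0.05. In each of the 66 called genes the 3 treated and 3 untreated libraries did not overlap, which was also so for 1523 of all tested genes (12.8%), 820 of them higher (6.9%) and 703 lower (5.92%) with GM-CSF. Left out in turn, the 6 libraries gave 31 to 61 calls, with 31 calls when untreated replicate 2 was dropped and 35 when either untreated replicate 3 or GM-CSF replicate 1 was dropped. 30 genes, 25 rises and 5 falls, stayed called in all 6 of these fits.

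**Figure D1:**
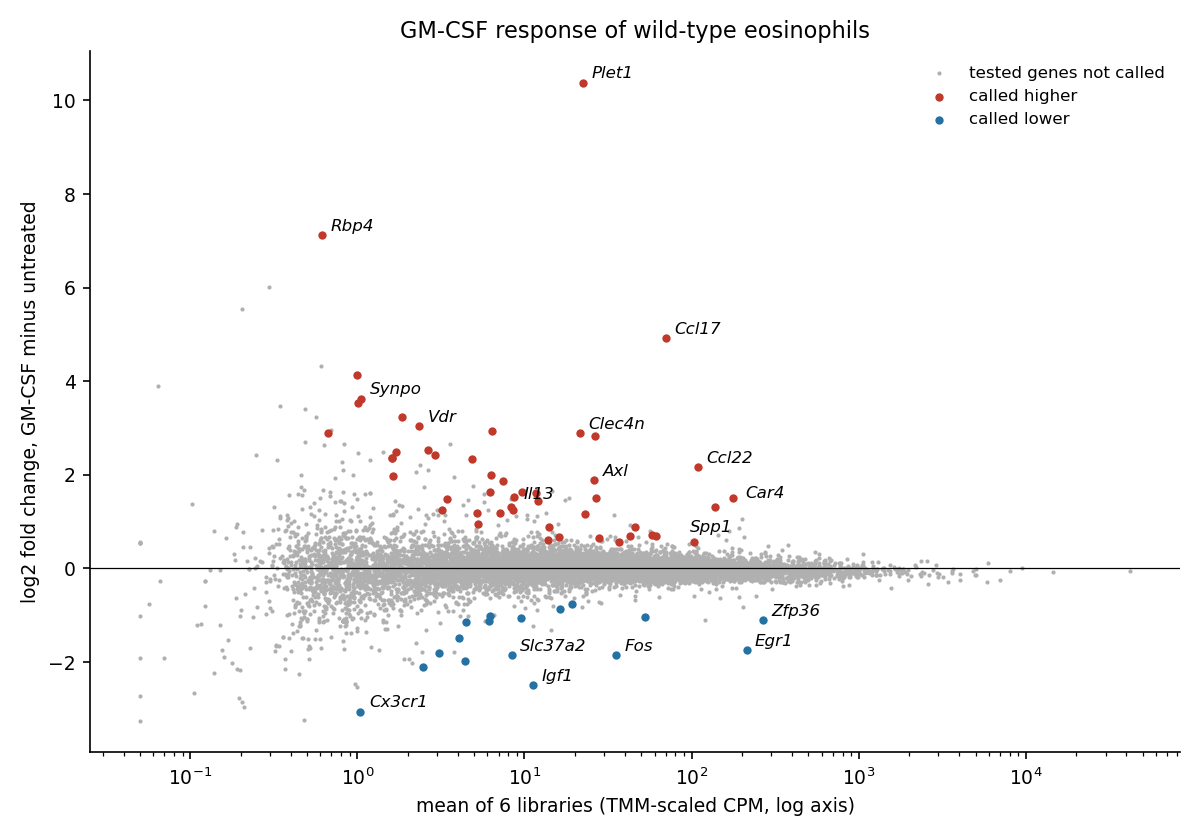
Each point is 1 of the 11885 tested genes, with its mean level over the 6 libraries (TMM-scaled CPM, log axis) against its fitted log2 fold change. The 49 genes called higher (red) and 17 called lower (blue) leave the most abundant genes at the right near 0, and the fitted values of Plet1 and Rbp4 rest on 1 and 0 untreated counts.

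Among the rises the chemokines were the list with the largest share of members called. Of 14 chemokine genes tested 6 rose and 0 fell, beside 0.412% and 0.143% of all tested genes. The median log2 fold change of the 14 was 0.74 beside -0.01 for all tested genes. Ccl17 (ENSMUSG00000031780, GRCm38 chromosome 8, 94810453 to 94812036), a ligand of the receptor CCR4, was at 3.85, 4.13 and 5.31 CPM in untreated and 153, 79.6 and 174 CPM in GM-CSF libraries. Ccl22, the other CCR4 ligand and a neighbour 58.8 kb away, was at 61.9, 29.7 and 28.4 CPM and then at 209, 151 and 179 CPM. Their log2 fold changes were 4.93 ± 0.42 (SE, adjusted p = 1.49e-06) and 2.16 ± 0.35 (adjusted p = 0.00263). Of the treated libraries, replicate 2 was the lowest for both genes, and untreated replicate 1 was the highest control for Ccl22. Neither gene's groups overlapped. Cx3cl1, which lies between them, was at 0.299 to 0.689 CPM untreated and 0.713 to 1.66 CPM with GM-CSF and was not called (adjusted p = 0.838).

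A second pair of chemokine neighbours rose by unlike amounts. Ccl3 and Ccl4 encode inflammatory chemokines and lie 13.2 kb apart on chromosome 11. Ccl4 was at 8.95, 5.51 and 5.01 CPM in untreated and 56.0, 41.6 and 41.9 CPM in treated cells, a log2 fold change of 2.83 ± 0.26 (adjusted p = 1.49e-06). Ccl3 was at 39.6, 39.1 and 51.7 CPM and then at 74.1, 76.3 and 64.8 CPM, a log2 fold change of 0.72 ± 0.14 (adjusted p = 0.015). Ccl3 lost its call without untreated replicate 1 or 2 or GM-CSF replicate 1 or 2 (adjusted p of 0.0828 to 0.152). Next to them, Ccl9 (0.71 ± 0.23, adjusted p = 0.364) and the abundant Ccl6 (0.12 ± 0.16, adjusted p = 0.97) were not called.

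The remaining chemokine rises were Ccl24, an eotaxin that attracts eosinophils through CCR3, and Cxcl2, a neutrophil attractant. Ccl24 was at 1.83, 1.38 and 1.12 CPM in controls and at 11.4, 7.07 and 15.3 CPM in treated cells (log2 fold change 2.94 ± 0.46, adjusted p = 0.00144). Cxcl2 was at 15.7, 13.6 and 13.1 CPM and then at 36.5, 32.9 and 25.9 CPM (1.17 ± 0.18, adjusted p = 0.00131). The monocyte attractant Ccl2, at 7.97 to 11.1 CPM untreated and 16.9 to 36.3 CPM treated, missed the threshold (1.47 ± 0.35, adjusted p = 0.065).

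The DNA before the start sites of 2 of these chemokine genes is shown because 1 holds the STAT5 letters and the other an NF-kB match. Both are the 250 bases upstream of the RefSeq start on GRCm38.p6, plus strand, 5′ to 3′, at chr8:94810203-94810452 and chr5:90903649-90903898. Capitals mark TTCNNNGAA, the STAT5 motif, in Ccl17 and 2 overlapping matches of the NF-kB consensus, 1 per strand, in Cxcl2.
Ccl17: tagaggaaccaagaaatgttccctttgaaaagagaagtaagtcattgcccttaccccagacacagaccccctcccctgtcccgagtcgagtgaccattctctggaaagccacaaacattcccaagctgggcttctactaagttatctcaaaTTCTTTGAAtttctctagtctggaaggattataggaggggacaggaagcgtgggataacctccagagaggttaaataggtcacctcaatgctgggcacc
Cxcl2: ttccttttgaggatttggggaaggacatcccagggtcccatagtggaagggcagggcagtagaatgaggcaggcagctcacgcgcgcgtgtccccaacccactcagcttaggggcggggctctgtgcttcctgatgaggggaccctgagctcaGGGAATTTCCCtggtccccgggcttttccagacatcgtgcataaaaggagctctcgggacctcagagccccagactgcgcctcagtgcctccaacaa
The Ccl17 match lies 99 to 91 bases before the start and the Cxcl2 matches 97 to 87 bases before it. TTCNNNGAA occurred in 8.3% of all 32851 promoter windows in the RefSeq table (250 bases before to 50 after a start, both strands searched) and the NF-kB consensus in 4.51%. Of the called genes, 37 of the 49 rises and 13 of the 17 falls matched this table by symbol, with 43 and 15 windows. The STAT5 motif was in 1 window of the rises (2.33%, Ccl17) and in 2 of the falls (13.3%, Il7r and Zfp36). The NF-kB consensus was in 5 windows of the rises (11.6%, Car4, Cxcl2, Flt1, Slfn1 and Tlr2) and in 2 of the falls (13.3%, Chil1 and Fos). TGANTCA, the AP-1 motif, was in 8 windows of the rises (18.6%) and 2 of the falls (13.3%) against 7.81% of all windows. GCGNGGGCG, an EGR motif, was in 8 (18.6%) and 2 (13.3%) against 5.55%. Matches of the motifs were counted separately, whether or not they overlapped, and the near-identical Bcl2a1b and Bcl2a1d gave 2 windows to each of the last 2 counts of the rises. These are matches of letters and no evidence of binding.

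**Figure D2:**
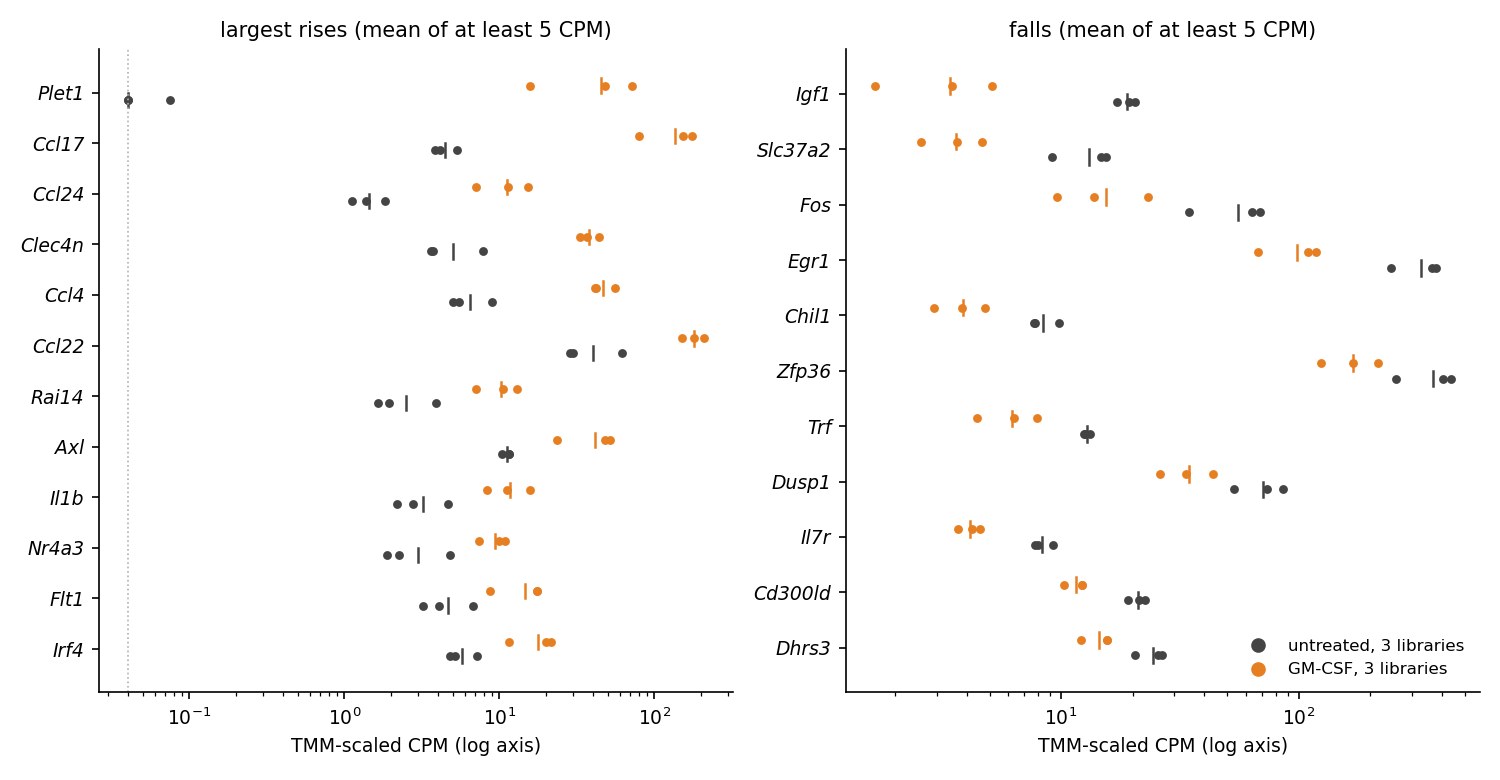
TMM-scaled CPM (log axis) in the 3 untreated (grey) and 3 GM-CSF libraries (orange) for the called genes with a mean of at least 5 CPM that rose most (left) and that fell (right), with a tick at each group mean. No gene's groups overlap, and Plet1 values of 0 are drawn at the dotted line.

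Cytokine and growth factor genes moved in both directions. Of 24 tested, 6 rose and 1 fell, beside 0.412% and 0.143% of all tested genes. The median log2 fold change of the 24 was 0.23. Il13, the type 2 cytokine of allergic inflammation, was at 4.51, 4.48 and 4.26 CPM in untreated and 11.3, 17.5 and 9.55 CPM in GM-CSF libraries (1.53 ± 0.22, adjusted p = 0.000786). Hbegf, an EGF receptor ligand, was at 3.46, 2.76 and 3.22 CPM and then at 6.57, 7.13 and 7.96 CPM (1.19 ± 0.21, adjusted p = 0.00351). Tnfsf4, which encodes the T-cell costimulator OX40 ligand, was at 0.261, 0.603 and 0.748 CPM and then at 3.14, 2.8 and 2.17 CPM (2.35 ± 0.36, adjusted p = 0.00107). These 3 stayed called in all 6 fits without 1 library, and in Il13 GM-CSF replicate 2 was the highest library, the reverse of its place in Ccl17.

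The interleukin-1 genes and Tnf, which encode inflammatory cytokines, were called with less certainty. Il1b was at 4.64, 2.76 and 2.17 CPM untreated and 15.7, 11.2 and 8.32 CPM treated (1.87 ± 0.33, adjusted p = 0.00403), and the call was lost without untreated replicate 2 or 3 (adjusted p of 0.0541 and 0.0549). Its neighbour Il1a, 54.6 kb away on chromosome 2, was at 1.24, 1.12 and 0.374 CPM and then at 5.49, 7.29 and 1.95 CPM (2.43 ± 0.51, adjusted p = 0.0223). Tnf was at 30.8, 28.6 and 29.2 CPM and then at 45.6, 49 and 36.4 CPM (0.56 ± 0.12, adjusted p = 0.0223). In all 3 genes GM-CSF replicate 3 was the lowest treated library. Il1a and Tnf lost their calls when any of the other 5 libraries was left out (adjusted p of 0.0557 to 0.24 and of 0.0517 to 0.161) and when only these 6 libraries were fitted (adjusted p = 0.129 and 0.0771). Csf1 (0.36 ± 0.20, adjusted p = 0.848), Tgfb1 (0.30 ± 0.11, adjusted p = 0.525) and Il1rn (0.87 ± 0.38, adjusted p = 0.691) were not called, and Il1rn was at 409 CPM in GM-CSF replicate 2 against 180.2 and 157 CPM in the other 2.

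A growth factor gave the largest fall among the falls that stayed called in all 6 fits. Igf1 (ENSMUSG00000020053, chromosome 10), insulin-like growth factor 1, was at 17.2, 20.5 and 19.3 CPM in untreated and 3.49, 1.64 and 5.14 CPM in GM-CSF libraries (-2.49 ± 0.34, adjusted p = 0.000464). Inhba, which encodes the activin A subunit and belongs to no list, rose from 2.87, 0.603 and 1.2 CPM to 9.77, 8.17 and 6.58 CPM (2.34 ± 0.36, adjusted p = 0.00107). Untreated replicate 1 was its highest control, and without it the log2 fold change was 3.15. Flt1, a receptor for the growth factor VEGF, was at 6.73, 4.05 and 3.22 CPM and then at 17.5, 8.72 and 17.5 CPM (1.63 ± 0.34, adjusted p = 0.0223), and it lost its call without untreated replicate 2 or 3 or GM-CSF replicate 1 or 3 (adjusted p of 0.0999 to 0.232) or when only these 6 were fitted (adjusted p = 0.115).

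Single surface proteins rose as well, while the receptor lists held few calls in either direction. Of 33 cytokine receptors 1 rose and 1 fell, of 40 chemoattractant receptors 1 rose and 1 fell, and of 22 Siglec and CD300 receptors 0 rose and 1 fell. Plet1 (ENSMUSG00000032068, chromosome 9, 50494525 to 50505482), a lipid-anchored surface protein known from epithelial progenitors and some dendritic cells, was at 0, 0 and 0.0748 CPM in controls and at 48.2, 15.8 and 71.2 CPM in treated cells. That is 1 count against 2116 over 3 libraries each, a ratio of 1720 with an exact 95% counting interval of 308 to 67986, which covers counting error only. Plet1 was called by edgeR (adjusted p = 0.000287) and not by limma-voom (adjusted p = 0.166). Axl, a receptor tyrosine kinase that binds the phosphatidylserine bridge Gas6, was at 11.5, 11.6 and 10.4 CPM and then at 48.1, 23.6 and 51.6 CPM (1.88 ± 0.32, adjusted p = 0.00333). It was the 1 called gene of 17 tested TAM receptor and phagocytosis genes, whose median was 0.00. Itgax, the integrin CD11c, rose from 49.9, 46.9 and 42.2 CPM to 73.2, 73.3 and 79.7 CPM (0.70 ± 0.11, adjusted p = 0.00179), 1 of 31 tested adhesion genes. Its partner chain Itgb2 (-0.01 ± 0.13) and the related integrin Itgam (-0.02 ± 0.16) were not called.

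Pattern-recognition receptors moved both ways, and 2 of the 3 calls fell in a single gene cluster. Of 31 tested, 2 rose and 1 fell, with a median of 0.04. Tlr2, the receptor for bacterial lipoproteins, was at 6.34, 5.34 and 3.51 CPM and then at 13.3, 11.3 and 11.3 CPM (1.24 ± 0.19, adjusted p = 0.00107). Clec4n (chromosome 6, 123229843 to 123247021) encodes dectin-2, a lectin receptor for fungal mannans. It was at 7.78, 3.70 and 3.59 CPM in controls and 43.9, 32.9 and 36.9 CPM in treated cells (2.89 ± 0.28, adjusted p = 4.43e-06). Clec4a1, another lectin receptor gene 295 kb away in the same cluster, was at 4.9, 3.62 and 5.76 CPM and then at 1.14, 0.658 and 2.39 CPM (-1.81 ± 0.41, adjusted p = 0.0409). Leaving out any of the libraries other than GM-CSF replicate 3 ended its call (adjusted p of 0.0746 to 0.289), as did a fit of these 6 libraries alone (adjusted p = 0.0894), and without GM-CSF replicate 3 its log2 fold change was -2.40, while the Clec4n call held in all 6 fits. Of the lectin genes between and beside them, Clec4a3 (-0.66 ± 0.37), Clec4b1 (-0.25 ± 0.57), Clec4a2 (0.12 ± 0.18), Clec4b2 (0.42 ± 0.28), Clec4d (0.17 ± 0.18) and Clec4e (0.59 ± 0.26) were not called, and Clec4a4 was too low to be tested. Reads of such similar genes may be split by the counting, whose handling of multi-mapped reads is not given in the sources used here.

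**Figure D3:**
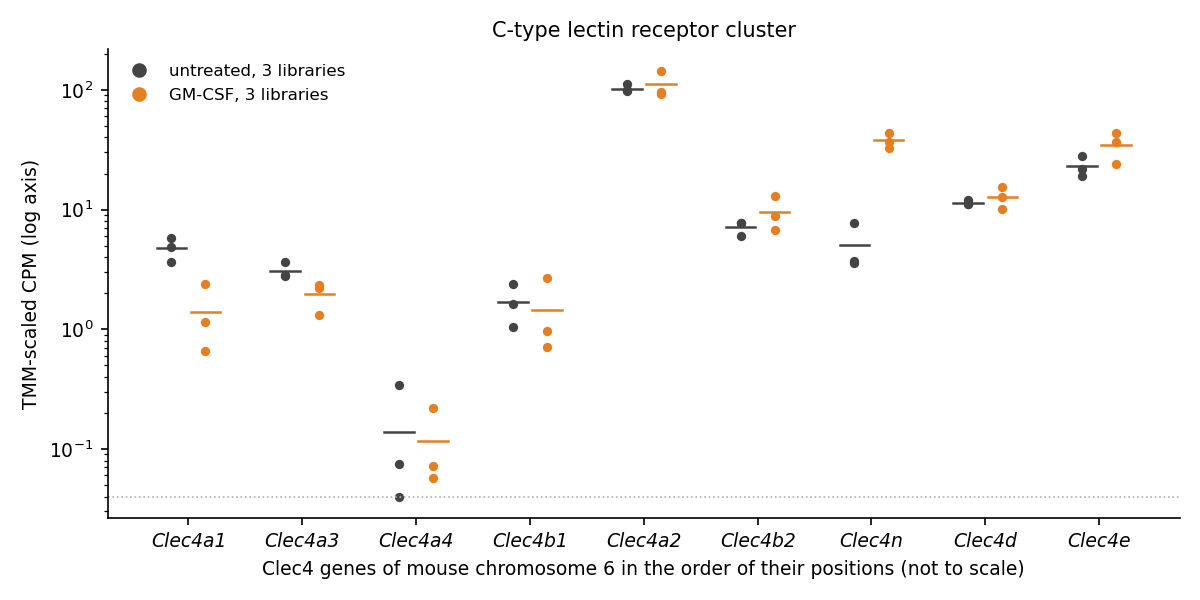
TMM-scaled CPM (log axis) of the Clec4 genes on chromosome 6 in their order along the chromosome, in 3 untreated (grey) and 3 GM-CSF libraries (orange), with lines at group means. Only Clec4n at 32.9 to 43.9 CPM treated and Clec4a1 at 0.658 to 2.39 CPM treated were called, and the value of 0 for Clec4a4 is drawn at the dotted line.

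Further receptor genes that rose were Il21r (0.60 ± 0.12, adjusted p = 0.0163), the receptor of interleukin-21, Tarm1 (0.56 ± 0.12, adjusted p = 0.0307), an activating receptor of myeloid cells, P2rx5 (3.54 ± 0.74, adjusted p = 0.0223), an ATP-gated channel, and S1pr3 (2.89 ± 0.66, adjusted p = 0.0449), a receptor of sphingosine 1-phosphate. When 1 library was dropped, P2rx5 and S1pr3 lost their calls except without GM-CSF replicate 2, Tarm1 except without GM-CSF replicate 1 and Il21r except without GM-CSF replicate 2 or 3, with adjusted p up to 0.26. P2rx5 also missed the threshold by limma-voom (adjusted p = 0.0726), S1pr3 by limma-voom (0.0758), with no low-count filter (0.0529) and with only these 6 libraries fitted (0.0547), and Il21r (0.0662) and Tarm1 (0.0652) in the last of these. Treated levels of S1pr3 were only 0.768 to 1.59 CPM. The adaptor Scimp, which couples surface receptors to Src kinases in antigen-presenting cells, rose from 0.261, 0.344 and 0.449 CPM to 3.66, 2.41 and 3.98 CPM (3.23 ± 0.42, adjusted p = 0.000243) and stayed called in all 6.

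Car4 and Spp1 rose from levels that were already well above detection. Car4 (chromosome 11, 84957786 to 84966044), a membrane-bound carbonic anhydrase that interconverts carbon dioxide and bicarbonate, was at 76.3, 93.5 and 107 CPM in untreated and 210.1, 298 and 278 CPM in GM-CSF libraries. It was the 1 called gene of 29 tested carbonic anhydrase and ion transport genes (1.51 ± 0.17, adjusted p = 2.8e-05), whose median was 0.11. Spp1, the secreted matrix protein osteopontin, was at 106, 64.8 and 65.8 CPM and then at 227, 219 and 144 CPM (1.31 ± 0.19, adjusted p = 0.000935). Untreated replicate 1 was the highest control and GM-CSF replicate 3 the lowest treated library, and the groups did not overlap. With only these 6 libraries fitted Spp1 missed the threshold (adjusted p = 0.0652). Of 42 tested genes of alternative activation and remodelling, Spp1 rose, the chitinase-like Chil1 fell (-1.13 ± 0.25, adjusted p = 0.0366, lost in all 6 fits without 1 library with adjusted p of 0.0508 to 0.262), and the median was -0.10. The Car4 upstream sequence at chr11:84957504-84957753 (RefSeq, GRCm38.p6, plus strand, 5′ to 3′) is shown because Car4 also differed in its response from Csf2ra-/- cells, with capitals at its match of the NF-kB consensus.
Car4: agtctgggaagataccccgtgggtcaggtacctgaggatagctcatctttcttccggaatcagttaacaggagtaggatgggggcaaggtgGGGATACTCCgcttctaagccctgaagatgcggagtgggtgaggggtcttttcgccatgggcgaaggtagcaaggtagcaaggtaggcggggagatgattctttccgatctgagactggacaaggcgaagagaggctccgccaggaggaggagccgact
This match lies 159 to 150 bases before the start, and no other motif searched occurred in these 250 bases.

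Among transcription factor genes, Vdr, Nr4a3 and Irf4 rose. Vdr, the vitamin D receptor, was at 0.457, 0.517 and 0.523 CPM and then at 5.03, 2.47 and 5.07 CPM (3.05 ± 0.50, adjusted p = 0.00179). Nr4a3, an orphan nuclear receptor induced early after stimulation in many cells, was at 4.77, 1.89 and 2.24 CPM and then at 9.89, 10.9 and 7.38 CPM (1.63 ± 0.27, adjusted p = 0.00247). Irf4, a factor of lymphoid and myeloid differentiation, was at 7.19, 5.17 and 4.79 CPM and then at 21.6, 11.6 and 19.9 CPM (1.62 ± 0.34, adjusted p = 0.0235), a call lost without untreated replicate 2 or 3 or GM-CSF replicate 1 or 3 (adjusted p of 0.0838 to 0.208). Nr4a3 missed the threshold when only these 6 libraries were fitted (adjusted p = 0.0547).

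Egr1, Fos and the feedback regulators Dusp1 and Zfp36 fell. Egr1, a zinc finger factor of the immediate early response, was at 244, 364 and 378 CPM in untreated and 67.3, 109.6 and 118 CPM in GM-CSF libraries (-1.74 ± 0.22, adjusted p = 0.000177). Fos, a subunit of AP-1, was at 34.4, 63.6 and 68.5 CPM and then at 13.7, 9.65 and 23.2 CPM (-1.85 ± 0.41, adjusted p = 0.0461). The MAP kinase phosphatase Dusp1 was at 53.3, 73.5 and 85.8 CPM and then at 26.1, 43.5 and 33.6 CPM (-1.04 ± 0.19, adjusted p = 0.00519). Zfp36, which destabilises cytokine mRNAs, was at 256, 406 and 438 CPM and then at 124, 169 and 215 CPM (-1.11 ± 0.25, adjusted p = 0.0484). In these 4 genes untreated replicate 1 was the lowest control and lay above all treated libraries. The Egr1 call held in all 6 fits without 1 library. Fos and Zfp36 lost theirs without untreated replicate 2 or 3 or GM-CSF replicate 1 or 2 (adjusted p of 0.216 to 0.27 and of 0.2 to 0.36), and Dusp1 without untreated replicate 3 or GM-CSF replicate 1 (adjusted p of 0.0778 and 0.0927). All 3 missed the threshold with only these 6 libraries fitted (adjusted p of 0.117 to 0.194), Zfp36 also with RLE or upper-quartile scaling, no low-count filter, the stricter filter and the Y-linked covariate (adjusted p = 0.0537, 0.0624, 0.142, 0.0502 and 0.0532), and Fos with upper-quartile scaling and with no low-count filter (adjusted p = 0.0501 and 0.134).

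As groups, 33 tested immediate early factors had 1 rise and 2 falls with a median of -0.02, and 23 DUSP, Sprouty and ZFP36 feedback regulators had 0 rises and 2 falls with a median of -0.14. Junb (-0.30 ± 0.42), Fosl2 (-0.25 ± 0.18), Btg1 (-0.28 ± 0.19), Btg2 (-0.58 ± 0.16, adjusted p = 0.156) and Rgs2 (-0.42 ± 0.14, adjusted p = 0.398) were not called. The Dusp1 upstream sequence (RefSeq, GRCm38.p6, chr17:26508473-26508722, minus strand, 5′ to 3′) is shown with its cAMP response element letters TGACGTCA in capitals, and that of Igf1 (chr10:87860861-87861110, plus strand) with its AP-1 letters TGANTCA in capitals.
Dusp1: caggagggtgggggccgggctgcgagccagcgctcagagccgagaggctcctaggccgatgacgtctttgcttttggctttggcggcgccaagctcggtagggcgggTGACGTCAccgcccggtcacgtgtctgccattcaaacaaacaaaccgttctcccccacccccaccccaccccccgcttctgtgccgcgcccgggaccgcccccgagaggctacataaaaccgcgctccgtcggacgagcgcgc
Igf1: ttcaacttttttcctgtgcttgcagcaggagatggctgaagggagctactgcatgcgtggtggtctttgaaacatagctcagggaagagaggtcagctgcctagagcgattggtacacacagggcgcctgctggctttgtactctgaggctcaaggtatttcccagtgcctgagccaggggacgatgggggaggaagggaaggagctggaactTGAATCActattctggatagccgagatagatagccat
The Dusp1 match lies 143 to 136 bases and the Igf1 match 37 to 31 bases before the start. The element TGACGTCA occurred in 1.79% of all windows, in 2 windows of the rises (4.65%, Creb5 and Flt1) and in 1 of the falls (6.67%, Dusp1).

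The other falls were receptor, transport and secreted-protein genes, most of them at low levels. Cd300ld, a paired-type immunoglobulin receptor, was at 22.6, 21.3 and 19.1 CPM and then at 10.3, 12.2 and 12.2 CPM (-0.86 ± 0.14, adjusted p = 0.00164). Slc37a2, a sugar-phosphate exchanger of the endoplasmic reticulum, was at 9.15, 15.5 and 14.7 CPM and then at 3.66, 2.58 and 4.63 CPM (-1.86 ± 0.29, adjusted p = 0.00131). Serpinb9b, a relative of the granzyme inhibitor Serpinb9, was at 3.14, 4.05 and 4.86 CPM and then at 0.8, 0.603 and 1.45 CPM (-2.10 ± 0.33, adjusted p = 0.0014). These 3 stayed called in all 6 fits. The chemokine receptor Cx3cr1 (-3.06 ± 0.66), the membrane protein Tmem26 (-1.98 ± 0.39), the T-cell costimulator Cd28 (-1.49 ± 0.32), the endosomal GTPase Rab7b (-1.15 ± 0.23), transferrin, Trf (-1.05 ± 0.24), and the interleukin-7 receptor Il7r (-1.01 ± 0.23) also fell. With 1 library dropped, Cd28 and Il7r lost their calls in all 6 fits, Cx3cr1 except without untreated replicate 3, Trf except without GM-CSF replicate 3, and Tmem26 and Rab7b except without untreated replicate 1 or GM-CSF replicate 3 (adjusted p up to 0.288). Il7r also missed the threshold with RLE scaling (adjusted p = 0.0535) and the Y-linked covariate (0.0739), Trf with that covariate (0.0593) and Cx3cr1 by limma-voom (0.0652).

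The monocyte and macrophage markers were read beside these falls. Their sum over 18 genes was 2694 to 2746 CPM untreated and 2436 to 2766 CPM with GM-CSF, none of the 18 was at 0 in all 6 libraries, the median log2 fold change was -0.32, and Cx3cr1 was the 1 called. Mrc1, the mannose receptor, was at 15.7, 22.6 and 23.1 CPM untreated and at 6.17, 1.86 and 17.2 CPM treated (-1.31 ± 0.69, adjusted p = 0.833), so GM-CSF replicate 3 overlapped with the controls. Other markers that were not called lay on both sides of 0, with Lyz2 at -0.62 ± 0.18, C1qb at -1.0 ± 0.68, Ly6c2 at -0.04 ± 0.10, Adgre1 at 0.01 ± 0.14, Vcan at 0.52 ± 0.19, Cd14 at 0.60 ± 0.24 and Fcgr1 at 1.08 ± 0.39 on the log2 scale. Igf1 and Clec4a1 had the same order of treated libraries, replicate 2 lowest and replicate 3 highest, and over the 17 falls replicate 3 was the highest treated library in 12. The part of a few macrophage-like cells in these falls was not tested. In bulk RNA, fewer cells of a type and less RNA per cell cannot be told apart.

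Other cell types gave small or overlapping sums. Dendritic-cell markers summed to 200.1 to 229 CPM untreated and 148 to 345 CPM with GM-CSF, mostly H2-Ab1 and H2-Aa, with Xcr1 at 0. Their median log2 fold change was 0.37, with 0 calls. Batf3 (1.27 ± 0.36) and Zbtb46 (1.62 ± 0.53) did not overlap between the groups, and only Flt3 and Siglech lay below 0. Cd209a was at 3.6, 0.768 and 8.61 CPM in treated libraries, the order seen for Plet1 and Ccl17. Of the 49 rises, GM-CSF replicate 2 was the lowest treated library in 21. The part of dendritic cells in the rises was not tested. Neutrophil markers summed to 1786 to 2079.9 and 1791 to 2078 CPM. Basophil and mast cell markers summed to 664 to 814 and 674 to 838 CPM, and megakaryocyte markers, mostly Itga2b, to 1127 to 1180.3 and 1066 to 1352 CPM. Stromal and endothelial markers, mostly Pecam1, summed to 404 to 424 and 421 to 485 CPM, and B-cell markers to 116 to 131 and 92.8 to 133 CPM. None of these genes was called, and the part of such cells in any result was not tested. Erythroid markers, mostly Hbb-bt, summed to 27.4 to 37.2 CPM untreated and 42.5 to 54.6 CPM treated, with Hba-a1, Hba-a2, Slc4a1 and Car1 at 0 in all 6. Neither the erythroid sums nor the progenitor sums (123 to 134 CPM untreated and 115 to 120.2 CPM treated) overlapped between the groups. No gene of either list was called, and the part of such cells in any result was not tested. T-cell and innate lymphoid markers summed to 81.5 to 109 and 84.3 to 105 CPM, with Ncr1 and Gzma at 0 and with Il7r as the 1 call.

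The next 4 called genes, 3 known from retinoid metabolism and Asb2, were picked to stand together after their values had been seen, so nothing is read from them as a group. Rbp4, the retinol carrier, had 0 counts over 3 untreated and 61 over 3 treated libraries, at 1.37, 1.15 and 1.16 CPM treated, which is at least 16.5-fold higher against a floor of 3 counts over the group. Aldh1a2, which makes retinoic acid, was at 0.98, 0.517 and 0.449 CPM and then at 2.69, 2.47 and 2.75 CPM (1.98 ± 0.43, adjusted p = 0.0307). Dhrs3, which reduces retinal back to retinol, was at 20.5, 25.6 and 26.7 CPM and then at 12.1, 15.6 and 15.6 CPM (-0.75 ± 0.15, adjusted p = 0.0149). Asb2, a ubiquitin ligase subunit that targets filamins, was at 14.2, 13.3 and 14.7 CPM and then at 26.8, 53.5 and 38.5 CPM (1.5 ± 0.25, adjusted p = 0.00246). Rbp4, Vdr and Asb2 stayed called in all 6 fits, Aldh1a2 was called only in the full set and in the fit without untreated replicate 1 (adjusted p of 0.0726 to 0.26 in the other 5), and Dhrs3 lost its call without untreated replicate 2 or 3 or GM-CSF replicate 1 (adjusted p of 0.103 to 0.17) or with only these 6 libraries fitted (adjusted p = 0.0547).

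Further rises fell in no list. Spint1, an inhibitor of cell-surface serine proteases, was at 6.73, 5.77 and 6.95 CPM and then at 17, 20.2 and 15.6 CPM (1.44 ± 0.22, adjusted p = 0.00107). Synpo, an actin-associated protein, was at 0.0653, 0.172 and 0.224 CPM and then at 2.23, 1.48 and 2.17 CPM (3.63 ± 0.56, adjusted p = 0.00107). Both stayed called in all 6 fits. The actin-bound Rai14 (1.99 ± 0.37, adjusted p = 0.00747), the tight junction protein Cldn1 (2.35 ± 0.45, adjusted p = 0.0101), the Schlafen family gene Slfn1 (2.48 ± 0.44, adjusted p = 0.00458), the kinase genes Alpk2 (4.14 ± 0.81, adjusted p = 0.0149) and Nek6 (0.88 ± 0.17, adjusted p = 0.00808) and the steroid-metabolising Akr1c18 (1.48 ± 0.29, adjusted p = 0.0134) rose too. With 1 library dropped, Slfn1 lost its call without untreated replicate 2, Rai14 and Alpk2 without untreated replicate 2 or 3 or GM-CSF replicate 1, Cldn1 without untreated replicate 1 or 2 or GM-CSF replicate 1, Nek6 without untreated replicate 1 or 2 or GM-CSF replicate 2, and Akr1c18 except without GM-CSF replicate 3, with adjusted p up to 0.12. The log2 fold change of Alpk2 was 5.27 without untreated replicate 1. Creb5, Crispld2, Plxdc2, Rasgef1b, Rtn4ip1 and the predicted gene Gm42793 were called at log2 fold changes of 0.68 to 1.32. They lost their calls in 3 to 6 of those fits. Rtn4ip1 did so without untreated replicate 2 or 3 or GM-CSF replicate 2. The others did so at least without untreated replicate 2 or 3 or GM-CSF replicate 1 (adjusted p up to 0.354). Gm42793 lies within Spp1 on the same strand, so its rise may not be separate from that of Spp1.

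Survival genes rose only in the Bcl2a1 family among the 33 apoptosis genes tested, whose median was 0.08. Bcl2a1d, an antiapoptotic BCL2 relative, was at 0.915, 1.03 and 0.374 CPM and then at 3.94, 5.32 and 4.27 CPM (2.54 ± 0.37, adjusted p = 0.00083). Bcl2a1b was at 21.4, 20.2 and 23.9 CPM and then at 31.7, 38.0 and 32.1 CPM (0.64 ± 0.14, adjusted p = 0.0364), a call lost in all 6 fits without 1 library (adjusted p of 0.0646 to 0.262). Bcl2a1a was not called (0.56 ± 0.18, adjusted p = 0.288). The copies are near-identical, so the split of reads between them is uncertain. Mcl1 (-0.23 ± 0.13, adjusted p = 0.858), which is known to hold granulocytes alive, was not called, and both Bcl2a1 genes were also the calls among 30 NF-kB factors and targets (median 0.24).

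The receptor and its direct pathway showed no call. Of 20 genes for the receptor chains, JAKs and STATs 0 rose and 0 fell, and 1 had an unadjusted p under 0.05. Their median was -0.04 with a range of -0.24 to 0.36. With 0.555% of all tested genes called, 0 calls among 20 genes do not set this list apart. The alpha chain Csf2ra was at 53.4, 56.5 and 59.2 CPM untreated and 58.7, 83.8 and 74.0 CPM treated (0.36 ± 0.14, adjusted p = 0.573). The shared beta chain Csf2rb (-0.01 ± 0.13, adjusted p = 0.992), its mouse copy Csf2rb2 (-0.01 ± 0.15, adjusted p = 0.996) and the IL-5 receptor chain Il5ra (0.05 on the log2 scale) lay near 0, as did Jak2 (0.06). Among 21 STAT5 targets and feedback genes 1 rose, the cyclin gene Ccnd2, from 35.3, 28.7 and 33.3 CPM to 59.1, 54.3 and 45.2 CPM (0.70 ± 0.11, adjusted p = 0.00107), and the median was 0.20. The feedback inhibitors Cish (0.29, adjusted p = 0.557), Socs2 (0.30) and Socs1 (0.81, adjusted p = 0.174) and the kinase Pim1 (-0.10) were not called. DESeq2 called Socs1 (adjusted p = 0.0482). A p above the threshold does not show that these genes stayed the same, and the untreated cells were themselves under IL-5.

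**Figure D4:**
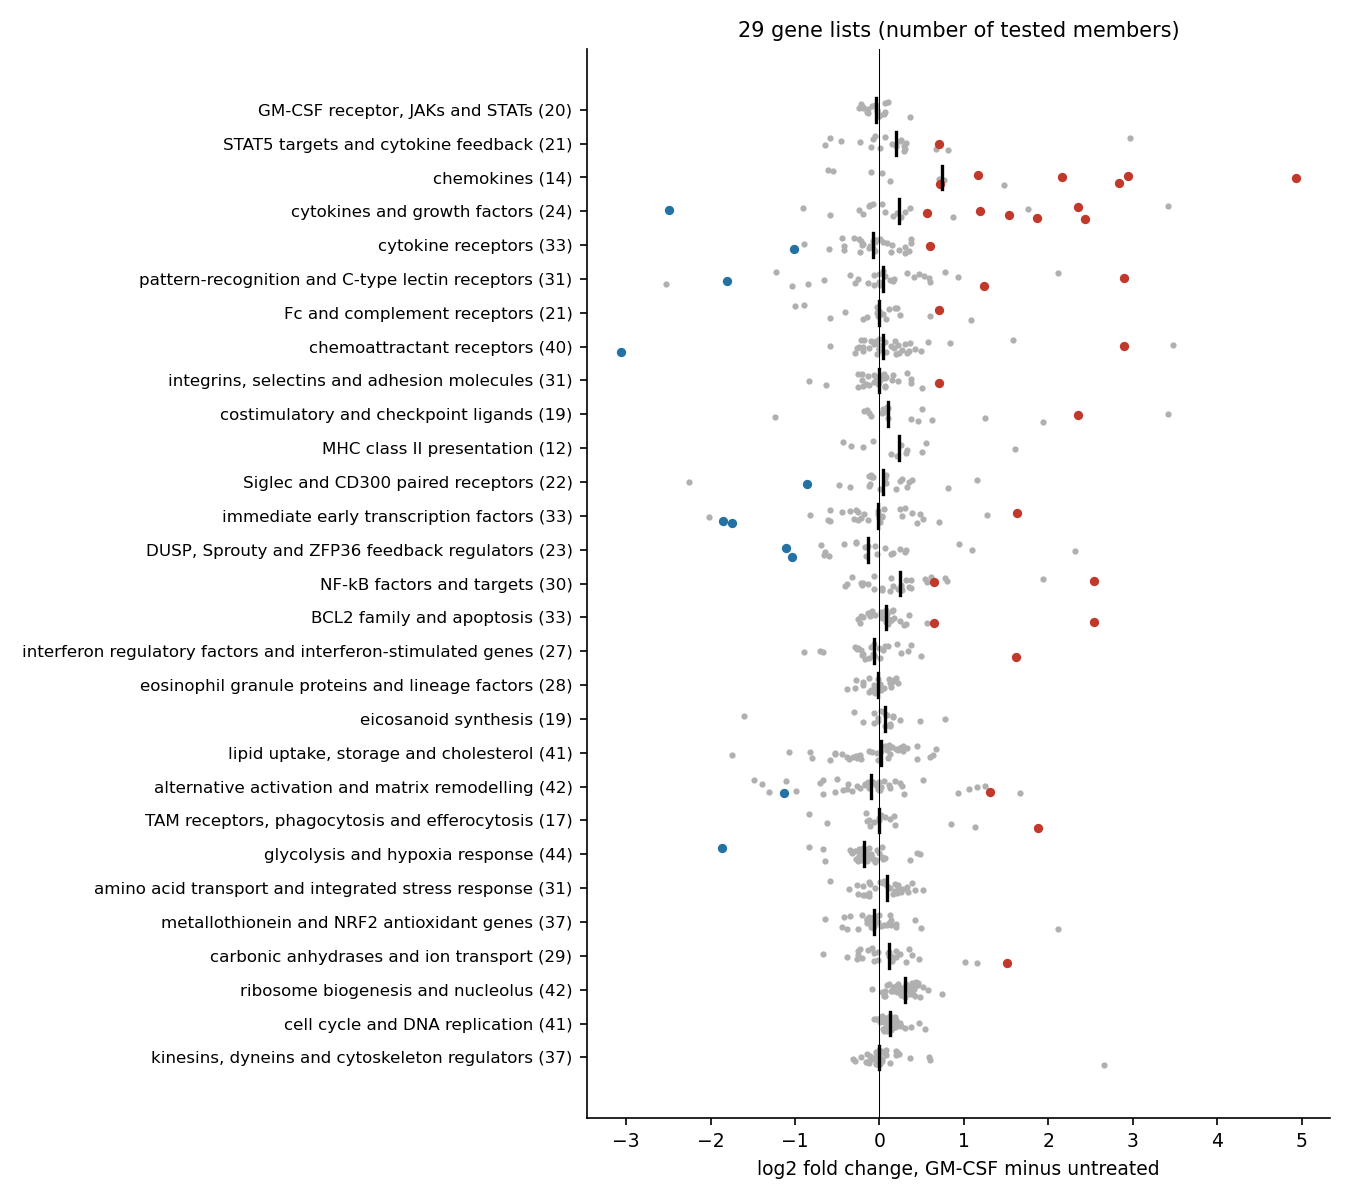
Log2 fold changes of the tested members of 29 gene lists, 1 point per gene, with called rises in red, called falls in blue, other genes in grey and a black bar at each list's median. Chemokines have the highest median (0.74), and most other medians lie near that of all tested genes (-0.01).

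Genes of eosinophil identity gave no call. Of 28 granule protein and lineage genes 0 rose and 0 fell, and 0 had an unadjusted p under 0.05. Their values ran from -0.39 to 0.22 with a median of -0.02. Of all tested genes 0.555% were called, and 3.94% rose and 2.33% fell at an unadjusted p under 0.05. So 0 calls among 28 genes do not set this list apart. Prg2, major basic protein, was at 42929, 40320.4 and 45566 CPM untreated and 40173, 42431 and 41450.5 CPM treated (-0.05 ± 0.12). Epx, eosinophil peroxidase, was at 15977, 15032 and 13803 CPM and then at 15102, 13513 and 13743 CPM (-0.08 ± 0.10). The groups overlapped in both genes. The eotaxin receptor Ccr3 (-0.29 ± 0.18, adjusted p = 0.885) and the lectin Siglecf (0.01) were not called, nor were any of 19 eicosanoid synthesis genes, which include Alox15 (-0.19 ± 0.12) and Alox5 (0.12 ± 0.12). Of 12 MHC class II presentation genes 0 were called. Their median level relative to the untreated mean was 0.30, -0.39 and 0.65 in the 3 treated libraries on the log2 scale, so GM-CSF replicate 2 lay below the controls and the other 2 above. Cd74, the invariant chain, followed the same order at 299.7, 173 and 373 CPM against 231, 239.6 and 242 CPM untreated.

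In 3 lists nearly all members leaned one way with little or no calling, and untreated replicate 1 lay nearer to the treated libraries than the other controls did. Of 42 ribosome biogenesis genes 41 had a log2 fold change above 0, against 48.5% of all tested genes, with a median of 0.30. Of the 42, 14 rose at an unadjusted p under 0.05, against 3.94% of all tested genes, but 0 were called. Relative to the untreated mean, their median level was 0.21, -0.17 and -0.06 in the 3 untreated and 0.40, 0.30 and 0.17 in the 3 treated libraries (log2 scale), so untreated replicate 1 lay above GM-CSF replicate 3. Of 41 cell cycle and replication genes 39 lay above 0 (median 0.13, 0 called), with library medians of 0.25, -0.15 and -0.16 untreated and 0.28, 0.16 and -0.03 treated. Of 44 glycolysis and hypoxia genes 36 lay below 0 (median -0.18, against 51.5% of all genes below 0), and the 1 called was Slc37a2. Their library medians were -0.19, 0.06 and 0.11 untreated and -0.19, -0.36 and 0.01 treated. The groups thus overlapped in all 3 lists. The members of a list vary together, and the counts of genes above or below 0 are a description. In each list the library medians also split by the Y-linked sum. Untreated replicate 1 and GM-CSF replicates 1 and 2 (173 to 178 CPM) lay apart from the other libraries (52.5 to 58.2 CPM). The part of the Y-linked level in these leans was not tested.

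Set beside wild-type cells with IL-10 present in both arms, from 6 other wild-type libraries, the 66 genes had the same signs. There GM-CSF raised 86 genes (0.724%) and lowered 16 (0.135%). Of the 49 rises 44 were also called and of the 17 falls 6. Whether rises and falls differ in this was not tested. The median log2 fold change of the 49 was 1.63 without and 1.81 with IL-10, and of the 17 it was -1.49 and -1.0. Among the falls not called with IL-10 were Egr1 (-0.08, adjusted p = 0.937), Zfp36 (-0.26, adjusted p = 0.8), Dusp1 (-0.30, adjusted p = 0.675) and Fos (-1.0, adjusted p = 0.412). Egr1 was at 160, 169 and 129 CPM with IL-10 alone and at 138, 132 and 162 CPM with both cytokines, below the untreated controls in all 6. A test of the difference between the 2 effects, added after these values were seen, called 0 genes by edgeR (149 at an unadjusted p under 0.05), 0 by limma-voom and 1 by DESeq2. Egr1 differed by -1.66 ± 0.30 (adjusted p = 0.216). The labels pair no libraries across groups, and whether the 2 sets of wild-type libraries came from the same cultures is not given.

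In cells labelled Csf2ra-/- GM-CSF changed 0 genes by edgeR, with 531 at an unadjusted p under 0.05, 0 by DESeq2 and 0 by limma-voom. Without Csf2ra-/- untreated replicate 2 the count was 29. The 49 and 17 genes called in wild type had medians of 0.04 and -0.04 there. They were chosen on wild-type values, so this is a description. Untreated levels were also lower in Csf2ra-/- than in wild type for most of the falls. Untreated Csf2ra-/- libraries had Igf1 at 3.7, 3.0 and 4.08 CPM and Slc37a2 at 2.47, 4.3 and 2.78 CPM, near treated wild-type levels. They also lay below all untreated wild-type libraries for Tmem26, Serpinb9b, Clec4a1, Cd28, Rab7b, Trf, Il7r, Chil1, Cd300ld, Dhrs3 and Cx3cr1. Untreated Zfp36 and Fos overlapped between the genotypes. Egr1 (308, 366 and 502 CPM) and Dusp1 (76.6, 79.4 and 83.3 CPM) were instead near untreated wild-type levels. The part of low untreated levels in the median of the falls was not tested. The difference between the 2 effects, wild type minus Csf2ra-/-, was called for 7 genes (0.0589%), 6 of them more positive (0.0505%) and 1 more negative (0.00841%) in wild type. Ccl17 (5.36 ± 0.64, adjusted p = 0.00089), Car4 (1.71 ± 0.24, adjusted p = 0.00166), Ccl4 (2.87 ± 0.40, adjusted p = 0.00166), Clec4n (2.82 ± 0.50, adjusted p = 0.0266), Spp1 (1.49 ± 0.27, adjusted p = 0.03) and Egr1 (-1.84 ± 0.30, adjusted p = 0.0108) were also called in wild type. Car4 was at 98.2, 78.6 and 103 CPM in untreated and 74.2, 75.8 and 92.4 CPM in treated Csf2ra-/- libraries, where the groups overlapped. The differences of Clec4n, Spp1 and Egr1 missed the threshold in 7, 9 and 4 of the 12 fits without 1 library (adjusted p up to 0.264, 0.163 and 0.0918), in all 3 genes without wild-type untreated replicate 2 or 3 or Csf2ra-/- untreated replicate 1. For the other 60 of the 66 genes the difference was not called, so a response limited to wild type is not shown for them.

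**Figure D5:**
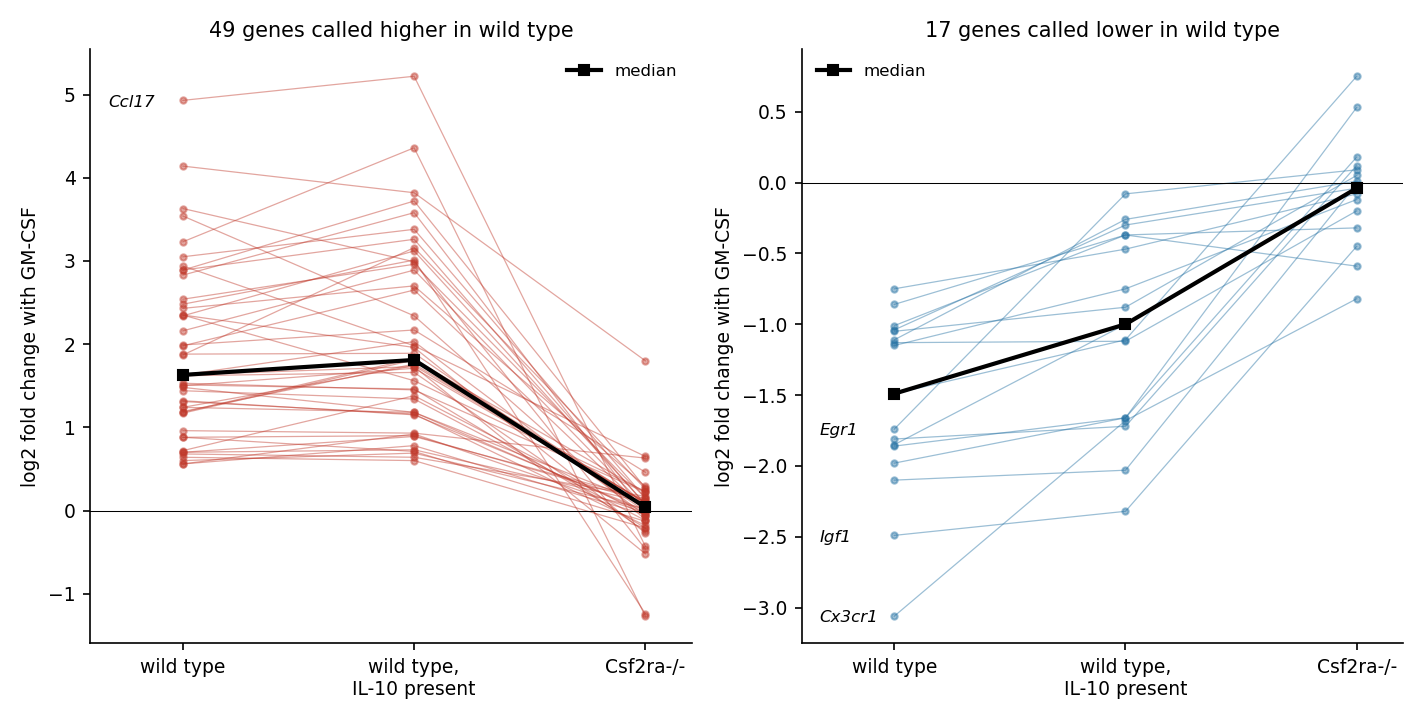
Fitted log2 fold change with GM-CSF of the 49 genes called higher (left) and 17 called lower (right) in wild type, in wild type, in wild type with IL-10 present and in cells labelled Csf2ra-/-, with 1 line per gene (Plet1 and Rbp4 not drawn, for their low counts) and black squares at the medians over all 49 and 17. The medians are 1.63, 1.81 and 0.04 for the rises and -1.49, -1.0 and -0.04 for the falls. Untreated levels, which were lower in Csf2ra-/- than in wild type for most of the falls, such as Igf1, are not drawn.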

How the data were processed

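The deposited files hold whole-number read counts per gene, 1 file per library, per the file headers (gene identifier and count). The authors made them on GRCm38.p6 using STAR and featureCounts, per the submitters' processing notes. Their versions, the strand setting and the treatment of multi-mapped reads were not given in the sources used here. The labels' protocols give stranded mRNA libraries. Each file lists 25746 genes, and 34 had no symbol in GENCODE M21 (0.019% of counts).

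Counts of all 24 libraries were fitted as 8 group means with edgeR 4.0.16 (R 4.3.3), after filterByExpr (11885 genes kept) and TMM scaling, with robust glmQLFit and glmQLFTest. All adjusted p-values come from this quasi-likelihood test with Benjamini-Hochberg adjustment unless another tool is named. The common biological coefficient of variation was 14.1%. Log2 fold changes are given ± SE. The effects were contrasts of this model. The fit was tested on simulated data.

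Alternatives were each library left out, only the groups compared, RLE or upper-quartile factors, no filter or a stricter filter (at least 1 CPM in 3 libraries), a Y-linked covariate, limma-voom (limma 3.58.1) and DESeq2 1.42.0. Median library levels of lists used log2 of CPM plus 0.5. Members and lists were chosen with earlier results of these data known. Values in every library were given by rule for the 12 largest rises and up to 12 falls with a mean of at least 5 CPM and no overlap (11 falls qualified), and for further called genes that stayed called in every fit or stand for a group. From each list called members and up to 4 abundant uncalled members were eligible. Replicate numbers follow the order of deposit and pair nothing, and replicates differed by more than counting noise. Promoters are from RefSeq on GRCm38.p6.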

Additional observations from a re-analysis of the deposited data

Results flagged for a closer look

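For 7 genes the GM-CSF effect differed between wild-type and Csf2ra-/- cells by the test of the difference itself. The log2 differences, wild type minus Csf2ra-/-, were 5.36 for Ccl17, 1.71 for Car4, 2.87 for Ccl4, 2.82 for Clec4n, 1.49 for Spp1, -1.84 for Egr1 and 7.43 for Kif1a. Kif1a, a kinesin motor of neurons, was not called in wild type alone and was chosen here after its values were seen. It had 9 counts over the 3 untreated and 71 over the 3 GM-CSF wild-type libraries, and 65 and 2 counts in Csf2ra-/- (difference 7.43 ± 1.18, adjusted p = 0.00797), so its value rests on opposite differences at very low counts. In untreated Csf2ra-/- cells it was at 0.247, 0.529 and 3.19 CPM, so replicate 3 held most of the 65 counts. The call held in all 12 fits without 1 library, as did those of Ccl17, Car4 and Ccl4. Kif1a missed the threshold with only the groups compared (adjusted p = 0.26) and by limma-voom (adjusted p = 0.0722). Ccl17, Car4 and Ccl4 stayed called in both. With only the groups compared Clec4n, Egr1 and Spp1 missed it too (adjusted p = 0.26, 0.26 and 0.345). Clec4n also missed it by limma-voom (adjusted p = 0.0953).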

How the results depend on the processing

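The wild-type call count of 66 was 112 with DESeq2, which held all 66, and 31 to 61 with 1 library left out. The other settings gave 63 to 70 calls and held 51 (only the groups compared) to 65 (stricter filter) of the 66. No called gene changed sign, and a call was lost in 37 of 528 such cases and in 154 of 396 cases with a library left out. The count of differing effects between wild type and Csf2ra-/- (7) was 3 with only the groups compared, 27 with DESeq2 and 4 to 12 with 1 library left out. With IL-10 present the count (102) was 168 with DESeq2 and 44 to 100 with 1 library left out. In Csf2ra-/- it (0) was 0 to 29, and the difference without minus with IL-10 (0) was 1 with DESeq2. The causes were not tested. No paired analysis was possible because the labels carry no replicate numbers that pair libraries. Of the 66 called genes 22 had a mean under 5 CPM, and the part of depth in lost calls was not tested.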
